A study of Mus musculus with 56 samples.

Results

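The cytosolic ribosomal protein genes encode the proteins of the large and small subunits of the ribosome. They were taken from 3 count tables as protein-coding genes whose symbol is Rpl or Rps and a number (with the suffix a, x, l or al where there is one), Rplp0, Rplp1, Rplp2 or Rpsa. This gave 81 genes, 50 of the large and 31 of the small subunit, among 47971, 45682 and 55385 genes in the tables of the astrocyte, heterozygous and knockout lines. They lie on 19 chromosomes, and 4 of them (Rpl10, Rpl36a, Rpl39 and Rps4x) are on the X chromosome. Rps4l, Rpl6l and Rpl32l match the name pattern but are not annotated as protein-coding, and were left out. Fau, Rps3a1 and Rack1, which also belong to the ribosome, fall outside the pattern and are given beside the members.

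Each ribosome contains proteins of the large and the small subunit. The peptide is built in the large subunit and leaves through its exit tunnel, and the message is read in the small subunit. The messages of these proteins begin with a run of pyrimidines, the terminal oligopyrimidine tract, through which the mTOR pathway and the RNA-binding protein Larp1 control how many of them are being translated. Pulling down tagged ribosomes recovers the RNA associated with them.

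RNA was sequenced from barrel cortex, the whisker area of the cerebral cortex, of mice at postnatal day 5, 24 h after whiskers on the right side were cauterised on day 4. Ribosomes of one cell type carried Rpl10a, a large-subunit protein, fused to EGFP and were pulled down through the tag. Libraries were made from what was pulled down (bound) and from the remainder of the lysate (unbound), 56 in 12 groups. In the astrocyte line (Aldh1l1::eGFPL10a, no tamoxifen) the tag was driven by Aldh1l1. In the heterozygous line (Cx3cr1CreErt2/+ with Eef1a1LSL.eGFPL10a/+) and the knockout line (Cx3cr1CreErt2/CreErt2 with the same tag allele) Cre made in Cx3cr1-expressing cells, mainly microglia, switched on a tag inserted at Eef1a1. Mice of both microglial lines, the source of deprived and control pieces, had received 50 µg tamoxifen on each of postnatal days 1 to 3. The knockout line carries Cre in both copies of Cx3cr1, so the receptor is missing from its deprived and control pieces alike. Titles name each piece of cortex deprived or control. Each knockout mouse gave a left piece titled deprived and a right piece titled control, as did heterozygous mice 14 and 15. Each fraction held 5 deprived and 5 control libraries in the astrocyte line and likewise the knockout line, and 4 and 4 in the heterozygous line. The labels name no animal for the astrocyte libraries, 4 mice for the heterozygous and 5 for the knockout libraries, so p-values rest on the spread from library to library. In the heterozygous line the library names 17R and 21L carry a side letter that goes against their title, since right whiskers project to the left cortex, and deprivation results of that line are given by title and by letter.

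Libraries held 10081228 to 28584281 counts in the astrocyte line, 32772396 to 50712376 for the heterozygous line and 34622580 to 56689296 for the knockout line. The labelled cell types were checked against 12 markers each. Summed astrocyte markers were 2496 to 3221 CPM (counts scaled to a common depth by TMM library sizes within a line) in bound and 1366 to 1664 in unbound libraries of the astrocyte line. Summed microglia markers were 166 to 346 CPM bound and 24.8 to 38.3 unbound in the heterozygous line, and 86.9 to 291 bound and 22.3 to 31.8 unbound in the knockout line. Of the 12 microglia markers, 12 were detected in every bound library of both microglial lines. Neuron markers summed to 8021 to 10640 CPM in bound libraries of the astrocyte line, 8776 to 13160 in the heterozygous and 8735 to 11510 in the knockout line, and these markers were detected in each bound library. In unbound libraries the neuron markers summed to 8152 to 9004, 7876 to 9742 and 7823 to 9249 CPM in the same order, overlapping the bound libraries. The part of neuron RNA in the values below was not tested, and fewer cells of a type cannot be told apart from less RNA per cell. Cx3cr1, the gene removed in the knockout line, had 6.52 to 12.4 CPM in heterozygous and 0.336 to 1.25 CPM in knockout bound libraries, which do not overlap.

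Start windows of 9 members are shown because the pyrimidine run is the feature these messages are known for, and the 9 range from the members lowest in bound RNA to some of the highest, with Rps18 and Rps6 as examples of small-subunit genes and Rpl10a as the tagged protein. They were read from RefSeq (GRCm38.p6), which matched 61 of the 81 members. Each runs 5′ to 3′ from 20 bases before to 9 bases after the annotated start, which is base 21, and capitals mark every C followed by at least 4 further pyrimidines (C or T). The windows lie at chr5:121204481-121204510 (Rpl6, plus strand), chr2:26910787-26910816 (Rpl7a, plus), chrX:74270796-74270825 (Rpl10, plus), chr1:39367831-39367860 (Rpl31, plus), chr17:28328451-28328480 (Rpl10a, plus, the first of its 2 annotated starts), chr17:33955656-33955685 (Rps18, minus), chr4:86857358-86857387 (Rps6, minus), chr7:141447631-141447660 (Rplp2, plus) and chr3:90213639-90213668 (Rps27, minus).
Rpl6: gatcttggtcaCCTCCCgtcattgcttata
Rpl7a: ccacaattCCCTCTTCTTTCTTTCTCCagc
Rpl10: ctatggttgttacagtggaagataggccgc
Rpl31: caCCTCTTCCTCCTCgCCTCCCCgtgaccc
Rpl10a: gcgtggtggcgCCCCCCCagcggccgcaaa
Rps18: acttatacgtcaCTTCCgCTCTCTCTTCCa
Rps6: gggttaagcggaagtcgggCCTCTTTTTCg
Rplp2: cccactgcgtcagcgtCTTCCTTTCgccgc
Rps27: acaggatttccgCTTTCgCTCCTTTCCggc

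A C exactly at an annotated start, followed by at least 4 pyrimidines, was sought on the sense strand, also where the run began further upstream. It was present in 13 of the 61 members with a sequence (21.3%) and in 3.01% of all 27025 RefSeq genes. Such a C within 10 bases on either side, again also inside a longer run, was present in 38 members (62.3%) and in 34.4% of all genes. These are matches of letters at annotated starts, which need not be the starts used in this tissue. Rpl6 and Rps27, at the low and the high end of the enrichment described below, both had a run near the start. Members with a run within 10 bases had a median log2 fold of bound over unbound RNA of -0.73 in the heterozygous line, and those without had -0.66. The corresponding medians were -0.12 and -0.13 in the astrocyte line and -0.86 and -0.77 in the knockout line. For such a C exactly at the start the order was the other way round in the microglial lines. Medians were -0.62 with and -0.74 without it in the heterozygous line and -0.75 and -0.86 in the knockout line. In the astrocyte line they were 0.10 and -0.14. These medians describe the members with a sequence, and no test compared them.

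Together the 81 genes took about 1% of all gene counts, and a smaller share of bound than of unbound RNA in each of the 8 heterozygous and 10 knockout tissue pieces. Astrocyte libraries, which name no animal, were matched by replicate number, and the share was smaller in bound RNA in 10 of 10 pairs made this way. In the astrocyte line bound libraries gave the members 0.885% ± 0.102 of their counts and unbound libraries 1.09% ± 0.0570 (SD, n = 10 each). Heterozygous libraries gave 0.691% ± 0.0817 bound and 1.01% ± 0.0485 unbound (SD, n = 8 each). Knockout libraries gave 0.658% ± 0.0816 bound and 0.992% ± 0.0667 unbound (SD, n = 10 each). Bound and unbound libraries of the microglial lines did not overlap in this share (highest bound 0.774% and 0.848%, lowest unbound 0.961% and 0.878%), whereas the highest astrocyte bound library (1.03%) lay above the lowest unbound library (0.998%). The ratio of bound to unbound share within a piece or pair had a median of 0.823 (0.633 to 0.919) in the astrocyte line, 0.680 (0.557 to 0.781) in the heterozygous and 0.645 (0.562 to 0.871) in the knockout line. The 2 mitochondrial ribosomal RNAs took 1.83%, 1.68% and 1.91% of bound counts in the 3 lines but 4.72%, 24.3% and 26.8% of unbound counts. With mitochondrial genes left out of the total, the median piece ratios were 0.801, 0.522 and 0.471. For the large- and small-subunit genes the median piece ratios were 0.816 and 0.835 in the astrocyte line, 0.673 and 0.692 in the heterozygous line and 0.638 and 0.648 in the knockout line.

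**Figure D1:**
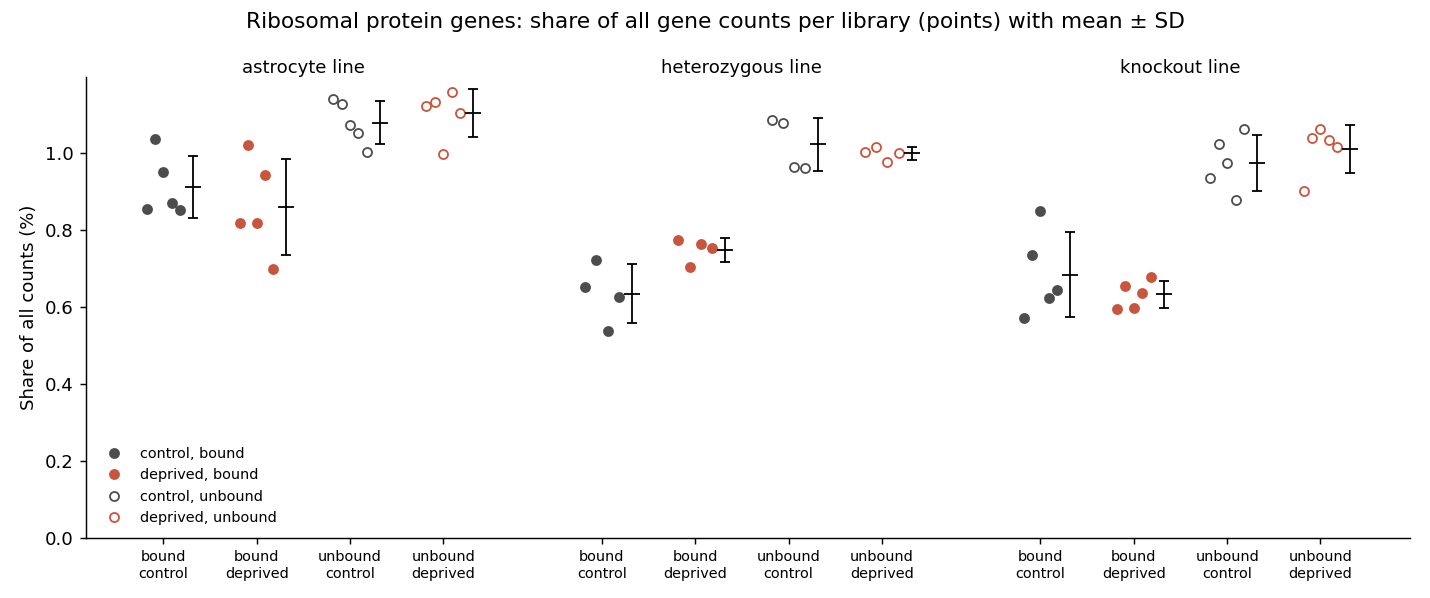
Share of all gene counts (%, vertical axis) taken by the 81 ribosomal protein genes in each library (points) of the 12 groups, filled for bound and open for unbound RNA, red for deprived and grey for control, with mean ± SD (n = 5, or 4 in the heterozygous line). Bound libraries lie below unbound ones in the heterozygous and knockout lines without overlap, and overlap with them in the astrocyte line.

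Levels of single members were compared per length, as CPM per kilobase of the principal transcript (GENCODE vM21), since the members' transcripts are short (median 886 bases, against 2652 for all protein-coding genes). In bound control RNA the median member stood at 108 CPM per kilobase in the astrocyte line, 68.5 for the heterozygous and 69.8 for the knockout line. The highest in the astrocyte line were Rpl41 (472 CPM per kilobase), the shortest ribosomal protein, Rpl13 (323) and Rpl10a (322). Those of the heterozygous line were Rps27 (280), Rpl4 (259) and Rpl41 (197), and in the knockout line Rps27 (287), Rpl4 (269) and Rps4x (197). Tables were normalised separately by line, so levels of different lines are set side by side only.

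The lowest levels belonged mostly to the paralogs with restricted expression. Rpl10l, the testis paralog of Rpl10, had 0 to 2 counts per library in astrocyte bound control RNA, 0 to 1 for the heterozygous and 0 for the knockout line. Rpl3l, the striated-muscle paralog of Rpl3, had 1 to 8, 0 to 5 and 0 to 8 counts. Rpl39l, the testis paralog of Rpl39, had 0 counts in each astrocyte bound control library, 5 to 15 in the heterozygous and 0 to 12 in the knockout line. In the main fits these 3 passed no deprivation or single-line enrichment filter, and Rpl10l and Rpl3l entered none of the main fits. Rpl36al, a paralog of Rpl36a, stood at 0.234 CPM per kilobase in astrocyte bound control RNA and at 2.24 and 2.51 in the microglial lines. Rps10 (0.457, 1.11 and 0.888) and Rpl24 (1.01, 0.232 and 0.181) were also low, and in the heterozygous line Rpl24 lay below Rpl39l (0.287). Rps10, Rpl24 and Rpl36al overlap exons of other annotated genes (RPS10-NUDT3 and Gm15420 for Rps10, Gm28037 for Rpl24 and Gm49383 for Rpl36al), and counts of such genes are uncertain, since the strand setting of the counting is not given. Of the 81 members, 38 overlap an exon of another gene, and 61 have at least 1 named pseudogene (308 in all), with which reads may be shared.

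Messages of the family were compared between bound and unbound RNA in each line (edgeR, quasi-likelihood, fitted over the 4 groups of a line). In the astrocyte line 16 of 76 tested members were higher and 38 lower in bound RNA (21.1% and 50.0%, against 31.5% and 27.6% of all genes tested). The members' median was -0.14 on the log2 scale, and that of all genes 0.03. For the heterozygous line 0 of 78 were higher and 76 lower (97.4%, against 31.8% of all genes higher and 30.8% lower), with a median of -0.72 against -0.01 for all genes. In the knockout line 0 of 78 were higher and 78 lower (against 31.6% of all genes higher and 30.4% lower), with a median of -0.84 against -0.01. Every bound library lay below every unbound library for 64 of 78 members in the heterozygous and 67 of 78 in the knockout line. The same held for 21 of 76 in the astrocyte line, where 3 members lay wholly above. Of all genes tested, 10.6% lay wholly below and 11.3% wholly above in the astrocyte line, 12.9% and 15.3% in the heterozygous line, and 10.5% and 12.3% in the knockout line. The low-count filter left out Rpl3l, Rpl10l and Rpl39l in all 3 lines, and Rpl36al and Rps10 in the astrocyte line.

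**Figure D2:**
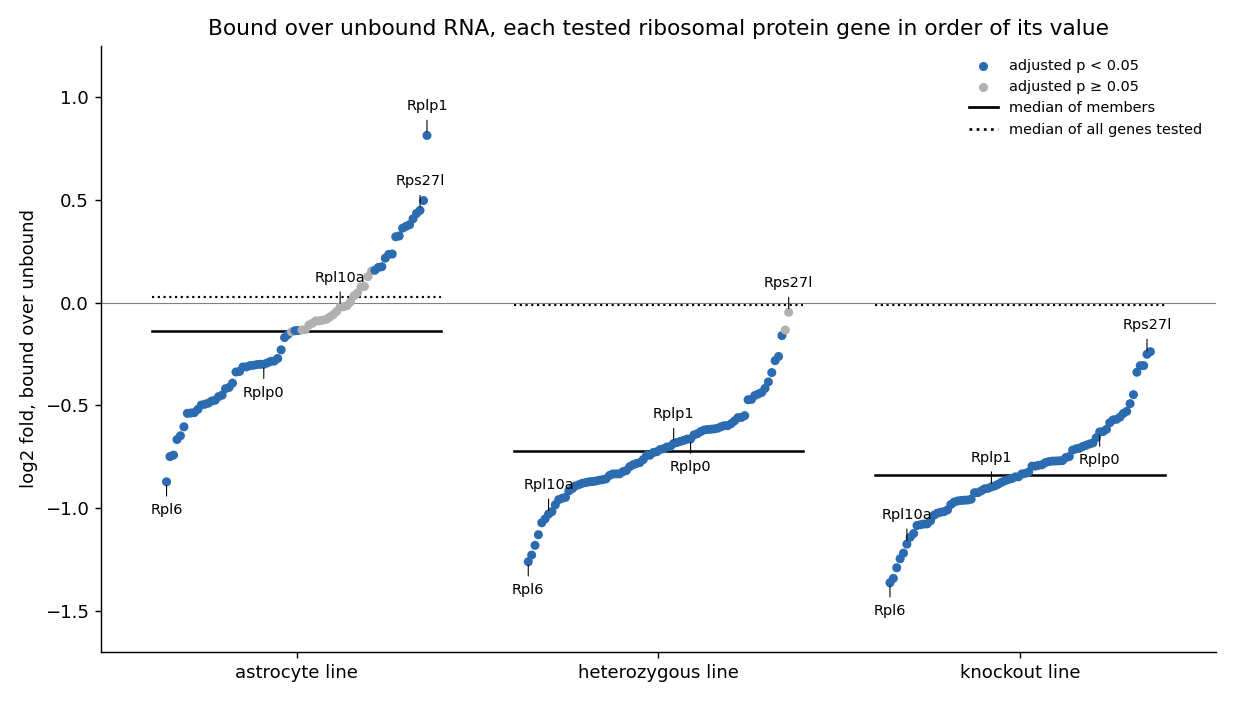
Log2 fold of bound over unbound RNA (vertical axis) of each tested member, in order of its value within each line, blue where the adjusted p is below 0.05, with the members' median (solid) and the median of all genes tested (dotted). Members spread on both sides of 0 in the astrocyte line (median -0.14), and lie below 0 in the heterozygous (-0.72) and knockout (-0.84) lines.

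Scaling to library totals in place of TMM moved the median of all genes to 0.18 for the heterozygous and 0.23 for the knockout line. The members' medians moved with it, to -0.53 and -0.60, and stood at -0.71 and -0.83 relative to all genes under either scaling. The called split changed to 0 higher and 70 lower in the heterozygous line and 0 higher and 73 lower in the knockout line. With the tissue piece as a replicate block, 77 and 78 members were lower, and 17 higher and 43 lower in the astrocyte line, where the block was the replicate number.

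Rpl10a, the protein that carries the tag, was examined apart. In the astrocyte line bound and unbound libraries overlapped, with 215, 218, 240, 248 and 251 CPM in the bound control libraries and 228, 228, 232, 241 and 255 in the bound deprived ones. Unbound libraries held 225, 233, 234, 239 and 246 CPM (control) and 220, 232, 232, 265 and 267 (deprived). The log2 fold of bound over unbound was -0.02 ± 0.04 (SE; edgeR, adjusted p = 0.696), 51st of the 76 members from the lowest.

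In both microglial lines Rpl10a was lower in bound RNA. Bound libraries of the heterozygous line held 67.6, 74.7, 80.0 and 97.2 CPM (control) and 74.4, 81.6, 85.1 and 96.0 (deprived). Unbound libraries held 124, 178, 180 and 187 CPM (control) and 156, 163, 169 and 182 (deprived), all above every bound library. The log2 fold was -1.03 ± 0.08 (edgeR, adjusted p = 8.36e-10), the 7th lowest of 78 members.

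In the knockout line bound libraries held 57.1, 70.0, 74.9, 94.9 and 101 CPM (control) and 65.7, 68.7, 74.3, 76.4 and 81.9 (deprived). Unbound libraries held 151, 154, 166, 167 and 220 CPM (control) and 153, 160, 174, 182 and 199 (deprived), again without overlap. The log2 fold was -1.18 ± 0.09 (edgeR, adjusted p = 7.65e-11), the 6th lowest of 78. The knockout and heterozygous folds differed by -0.14 ± 0.13 (edgeR, adjusted p = 1.0).

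The heterozygous table has a row for GFP, the coding sequence of the tag, and it moved the other way from Rpl10a. It had 226 to 435 counts in bound libraries (4.58 to 8.55 CPM, n = 8) and 15 to 43 in unbound libraries (0.402 to 0.942 CPM). The log2 fold of bound over unbound was 3.11 ± 0.14 (edgeR, adjusted p = 1.05e-13), and that of Csf1r, a growth factor receptor of microglia, was 2.81 ± 0.08 (adjusted p = 1.52e-16). Whether reads from the L10a part of the tag were counted under Rpl10a is not given in the sources used here.

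**Figure D3:**
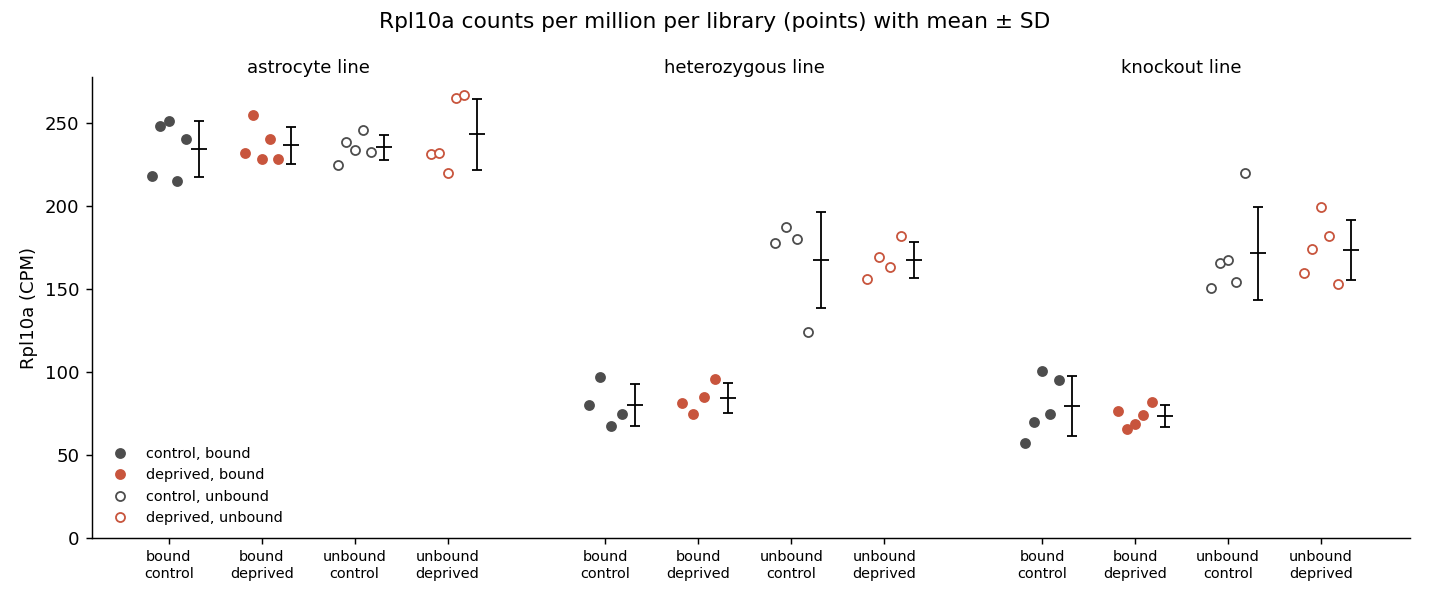
Rpl10a (CPM, vertical axis) in each library (points) of the 12 groups, filled for bound and open for unbound RNA, red for deprived and grey for control, with mean ± SD. Bound and unbound libraries overlap in the astrocyte line (215 to 255 and 220 to 267 CPM), and do not in the heterozygous (67.6 to 97.2 and 124 to 187) and knockout (57.1 to 101 and 151 to 220) lines.

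Among the large-subunit proteins, the members lowest in bound RNA were largely shared by the lines. Rpl6, Rpl10, Rpl17 and Rpl31 were among the 5 lowest members in all 3 lines, and with Rpl7a and Rps7 among the 10 lowest. Rpl10 joins the large subunit in a late step of assembly, and Rpl17 and Rpl31 line the exit of the peptide tunnel. Rpl6 of the astrocyte line had 79.0 to 114 CPM bound (median 92.9) and 160 to 188 unbound (median 172), with a log2 fold of -0.87 ± 0.05 (edgeR, adjusted p = 1.16e-13). Heterozygous libraries had 47.5 to 69.7 CPM bound (median 62.5) and 138 to 160 unbound (median 145), a log2 fold of -1.26 ± 0.06 (adjusted p = 6.55e-14). Knockout libraries had 46.4 to 82.7 CPM bound (median 55.8) and 130 to 167 unbound (median 148), a log2 fold of -1.36 ± 0.08. Bound and unbound libraries did not overlap for Rpl6 in any line. Rpl7a was at -0.60 ± 0.05, -1.23 ± 0.06 and -1.34 ± 0.07 in the 3 lines, and Rpl10 at -0.74 ± 0.06, -1.18 ± 0.07 and -1.29 ± 0.07. Rpl17 was at -0.75 ± 0.06, -1.13 ± 0.11 and -1.25 ± 0.07.

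Rpl4 and Rpl5, the latter a carrier of the small ribosomal RNA of the large subunit, were low in the astrocyte line too (-0.67 ± 0.05 and -0.52 ± 0.04), and stood at -0.70 ± 0.04 and -0.47 ± 0.04 in the heterozygous and -0.77 ± 0.06 and -0.57 ± 0.06 in the knockout line. Rpl14, Rpl18 and Rpl27a, named for their small p-values in the microglial lines, stood at -0.83 ± 0.05, -0.91 ± 0.06 and -0.80 ± 0.05 in the heterozygous line and at -0.93 ± 0.05, -1.06 ± 0.05 and -0.80 ± 0.05 in the knockout line. Astrocyte values were -0.31 ± 0.05, -0.10 ± 0.04 and -0.30 ± 0.06, and Rpl18 did not pass the test there (edgeR, adjusted p = 0.053). Of the other members on the X chromosome, Rps4x stood at -0.50 ± 0.06, -0.87 ± 0.06 and -0.96 ± 0.07, and Rpl36a at -0.31 ± 0.06, -0.82 ± 0.07 and -0.88 ± 0.07. Rpl39 stood at -0.13 ± 0.06 (not called), -0.86 ± 0.10 and -0.96 ± 0.07.

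The 3 proteins of the stalk, which recruits elongation factors to the large subunit, differed from each other. Rplp0, its base, was lower in bound RNA in all 3 lines, at -0.30 ± 0.05 (edgeR, adjusted p = 2.91e-05), -0.66 ± 0.06 and -0.63 ± 0.05. Rplp1 was higher in bound RNA of the astrocyte line, with 77.7 to 124 CPM bound (median 106) and 44.6 to 70.5 unbound (median 57.8), at 0.81 ± 0.08 (edgeR, adjusted p = 1.07e-09), and its fractions did not overlap. Rplp1 of the heterozygous line had 65.1 to 113 CPM bound (median 72.1) and 100 to 149 unbound (median 121), at -0.69 ± 0.10, and in the knockout line it stood at -0.90 ± 0.10. Rplp2 was at 0.50 ± 0.06 in the astrocyte line, -0.34 ± 0.08 for the heterozygous and -0.53 ± 0.05 for the knockout line. Rpl28 and Rpl36 were also higher in astrocyte bound RNA (0.38 ± 0.06 and 0.36 ± 0.05), and lower in the heterozygous (-0.86 ± 0.08 and -0.59 ± 0.08) and knockout (-1.01 ± 0.08 and -0.78 ± 0.06) lines.

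Among the small-subunit proteins, 7 of 30 tested were higher and 16 lower in bound RNA of the astrocyte line, with 0 and 29 of 31 for the heterozygous and 0 and 31 of 31 for the knockout line. Of all genes tested, 31.5% were higher and 27.6% lower in the astrocyte line, 31.8% and 30.8% (heterozygous) and 31.6% and 30.4% (knockout). Rpsa, also known as a laminin receptor precursor, was at -0.42 ± 0.05 (edgeR, adjusted p = 1.17e-08), -0.74 ± 0.05 and -0.88 ± 0.06. Rps7 was at -0.54 ± 0.06, -1.05 ± 0.05 and -1.14 ± 0.07. Rps27, Rps28 and Rps27l, a paralog of Rps27 induced by p53, were among the 5 members highest in both microglial lines, together with Rpl13a and Rpl22. Rps27l had 11.9 to 16.4 CPM bound and 8.37 to 11.6 unbound in the astrocyte line (0.45 ± 0.07; edgeR, adjusted p = 5.79e-06). Heterozygous libraries had 9.22 to 20.4 CPM bound and 11.5 to 17.6 unbound, with overlap (-0.05 ± 0.10; not called), and in the knockout line it stood at -0.25 ± 0.10 (adjusted p = 0.031). The call in the knockout line was lost in 9 of the 20 fits that left out 1 library.

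Over genes, the members' log2 folds of the heterozygous and knockout lines had a Pearson r of 0.952 and a Spearman rho of 0.930 (n = 78 genes). For the astrocyte and heterozygous lines these were 0.566 and 0.526 (n = 76). Astrocyte and knockout folds gave 0.436 and 0.373 (n = 76). These describe genes, which are not independent replicates, and genes share their length and base composition across lines. Shorter principal transcripts went with higher folds in the astrocyte line (r = -0.490 with log2 length, n = 76), and less so in the heterozygous (r = -0.170, n = 78) and knockout (r = -0.0650, n = 78) lines. Members that overlap another gene's exon had lower medians than those that do not, at -0.30 and -0.04 in the astrocyte line, -0.78 and -0.67 in the heterozygous and -0.87 and -0.79 in the knockout line.

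Enrichment was compared between the lines in one fit over both tables. The comparison of both microglial lines with the astrocyte line was added after the values were seen. Between the knockout and the heterozygous line 0 of 79 tested members passed (edgeR; 3 at an unadjusted p under 0.05; 0 called by DESeq2; 0.0% of all genes called), and the median difference was -0.10. Of the main fits Rpl39l entered this one only, at a few counts a library, with a difference of -2.44 ± 1.13 that did not pass the test. Rps19 differed by -0.22 ± 0.10 and did not pass the test.

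Between the heterozygous and the astrocyte line, 71 of 78 members were lower and 0 higher (91.0%, against 24.7% of all genes lower and 17.1% higher), with a median difference of -0.61 against -0.14 for all genes. Between the knockout and the astrocyte line, 71 of 78 were lower and 0 higher (91.0%, against 20% of all genes lower and 19.9% higher), with a median difference of -0.66 against -0.06. Both comparisons share the astrocyte libraries. Rpl28 differed by -1.32 ± 0.10 and -1.4 ± 0.11 (edgeR, adjusted p = 2.27e-14 and 3.32e-14), Rpl8 by -1.15 ± 0.08 and -1.22 ± 0.09, and Rpl41 by -1.12 ± 0.09 and -1.15 ± 0.08. Rpl18 differed by -0.88 ± 0.07 and -0.97 ± 0.07, and Rpl36 by -1.03 ± 0.10 and -1.15 ± 0.09. Rpl10a differed by -1.08 ± 0.09 (adjusted p = 6.44e-13) and -1.17 ± 0.10 (adjusted p = 1.98e-12). Rplp1, Rpl5 and Rpl4 were chosen after their values were seen, as the ends of the range. The heterozygous minus astrocyte difference was -1.57 ± 0.13 for Rplp1, -0.03 ± 0.06 for Rpl5 and -0.11 ± 0.06 for Rpl4, and the latter pair did not pass the test (edgeR, adjusted p = 0.746 and 0.154). Scaled to library totals, the splits were 2 higher and 48 lower, and 2 higher and 51 lower. Between either microglial line and the astrocyte line, cell type cannot be told apart from count table, tamoxifen, Cx3cr1 genotype or the tag's locus. For the knockout line the same holds for the molecule named in the labels (polyA RNA, against total RNA in the other lines). Between the knockout and heterozygous lines, genotype cannot be told apart from count table or from that molecule.

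**Figure D4:**
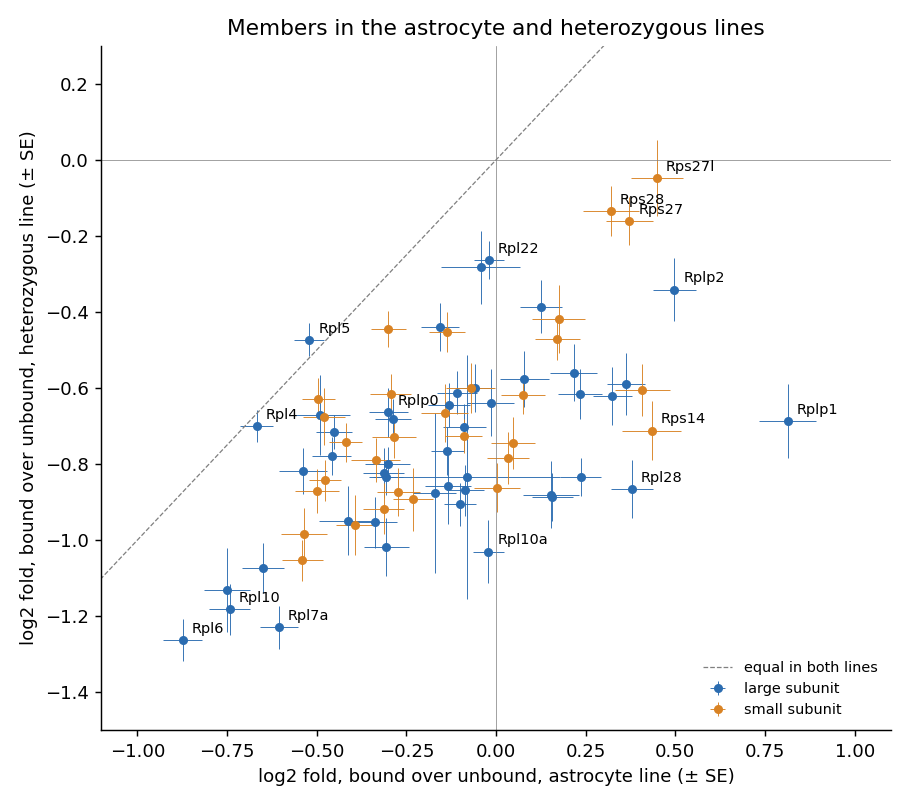
Log2 fold of bound over unbound RNA (± SE) of each member in the astrocyte line (horizontal axis) and the heterozygous line (vertical axis), blue for the large and orange for the small subunit, with a dashed line where both are equal. Nearly all points lie below the dashed line, Rplp1 farthest (0.81 and -0.69), and Rpl5 (-0.52 and -0.47) and Rpl4 (-0.67 and -0.70) lie next to it.

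The ribosomal proteins outside the name pattern were read alongside. Fau, the precursor of a small-subunit protein, was at 0.43 ± 0.06, -0.37 ± 0.07 and -0.61 ± 0.08 in the 3 lines. Rps3a1 was at -0.54 ± 0.06, -0.86 ± 0.12 and -0.87 ± 0.12, and Rack1, a scaffold on the small subunit, at 0.06 ± 0.05 (not called), -0.28 ± 0.07 and -0.44 ± 0.06. Of the other genes of the terminal oligopyrimidine class, 2 of 18 were higher and 14 lower in the astrocyte line, then 1 and 15 of 19 (heterozygous) and 0 and 16 of 19 (knockout), with medians of -0.40, -0.69 and -0.68. Hnrnpa1, an RNA-binding protein, stood at -0.75 ± 0.05 in the astrocyte line. Naca, a chaperone of nascent peptides, stood at -1.0 ± 0.05 and -1.01 ± 0.05 in the heterozygous and knockout lines. Eef1a1, the elongation factor whose locus carries the tag in the microglial lines, was at -0.52 ± 0.05, -0.86 ± 0.05 and -0.80 ± 0.06.

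Of 29 initiation factors, 5 were higher and 19 lower in the astrocyte line, 4 and 20 in the heterozygous and 4 and 20 in the knockout line. Eif2s2, a subunit of the factor that brings the initiator tRNA, was at -0.86 ± 0.04, -1.03 ± 0.04 and -1.07 ± 0.05. Eif4g1, the scaffold of the cap-binding complex, was at 1.25 ± 0.04 in the heterozygous line. Of 8 elongation factors, 1 was higher and 6 lower in the astrocyte line, 1 and 7 in the heterozygous and 0 and 7 in the knockout line. Of 23 ribosome assembly genes, 4, 4 and 5 were higher and 16, 14 and 11 lower. Nop56, of the nucleolar particle that methylates ribosomal RNA, was at -0.93 ± 0.05 in the astrocyte and -0.81 ± 0.06 in the knockout line, whereas Polr1a, the largest subunit of the polymerase for ribosomal RNA, was at 1.13 ± 0.05 and 1.12 ± 0.05 in the heterozygous and knockout lines.

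Genes that control ribosome synthesis and translation went the other way, with 11 of 16 higher and 2 lower in each line. Mtor was at 0.64 ± 0.07 in the astrocyte line, and Larp1 at 0.75 ± 0.05 and 0.75 ± 0.06 in the heterozygous and knockout lines. Of 76 mitochondrial ribosomal protein genes, 22 were higher and 25 lower in the astrocyte line, and of 77, 4 and 61 in the heterozygous and 4 and 60 in the knockout line. Of 76 nuclear genes of the respiratory chain, 33 were higher and 15 lower in the astrocyte line, 4 and 67 in the heterozygous and 4 and 68 in the knockout line, with medians of 0.13, -0.61 and -0.66. Beside the lists above, the shares of all genes tested were 31.5% higher and 27.6% lower in the astrocyte line. They were 31.8% and 30.8% in the heterozygous and 31.6% and 30.4% in the knockout line. The counts describe each list, and no test compared the lists with each other or with all genes.

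Deprived and control libraries were compared separately for every line and fraction, from fits restricted to the 2 groups. In the astrocyte line 0 of 76 members in bound and 0 of 75 in unbound RNA passed the test (edgeR; 1 and 0 at an unadjusted p under 0.05; 0 and 0 by DESeq2), as did 0.0% of all genes in both. The members' medians were -0.05 and 0.02, and those of all genes 0.00 and 0.00. Rpl6 had the smallest p in bound RNA (-0.22 ± 0.09; edgeR, adjusted p = 0.772), followed by Rpl26 (-0.20 ± 0.10) and Rpl17 (-0.17 ± 0.10). In unbound RNA Rpl18 (0.08 ± 0.05), Rpl36a (0.09 ± 0.06) and Rpl4 (0.06 ± 0.04) came first. Rpl10a differed by 0.00 ± 0.07 in bound RNA, with a sign that changed with the scaling and between fits that left out 1 library, and by 0.04 ± 0.05 in unbound RNA.

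In the knockout line 0 of 77 members in bound and 0 of 78 in unbound RNA passed (edgeR; 0 and 0 at an unadjusted p under 0.05; 0 and 0 by DESeq2). Of all genes 0.0% were higher in either fraction, and 0.00546% (bound) and 0.0380% (unbound) were lower. The members' medians were -0.06 and 0.04, and those of all genes -0.01 and 0.00. Rps15 (-0.20 ± 0.10), Rpl8 (-0.18 ± 0.11) and Rpl7a (-0.19 ± 0.11) had the smallest p-values in bound RNA. In unbound RNA these were Rps12 (0.17 ± 0.09), Rps4x (0.16 ± 0.10) and Rps27a (0.08 ± 0.06). Rpl10a differed by -0.13 ± 0.13 in bound and 0.01 ± 0.09 in unbound RNA. The share of counts in the bound control library of mouse 18 was the highest among bound libraries of the line (0.848%), and the bound deprived library of that mouse had 0.597%. Its bound control library also had the highest share of mitochondrial ribosomal RNA among bound libraries (3.53%, against 1.41% to 2.16% in the others), and the part of this in its value was not tested.

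In bound RNA of the heterozygous line, 6 of 77 members rose and 0 fell when libraries were grouped by title (edgeR; 22 at an unadjusted p under 0.05; 9 by DESeq2; 7.79% higher, against 5.52% of all genes higher and 4.76% lower). The median over members was 0.14, against 0.01 for all genes, and 72 of 77 lay above 0. These calls rest on how the libraries are grouped: by side letter 0 members passed (edgeR; 1 at an unadjusted p under 0.05) and the median was -0.05. Rps6, whose phosphorylation is the usual readout of mTOR signalling, had 48.9, 49.0, 52.0 and 55.6 CPM in control and 60.9, 61.2, 62.0 and 70.8 in deprived libraries, and rose by 0.32 ± 0.08 on the log2 scale (edgeR, adjusted p = 0.0185). Rpl5 had 141, 150, 154 and 158 CPM in control and 172, 178, 183 and 193 in deprived libraries (0.28 ± 0.07; edgeR, adjusted p = 0.0192). The 2 groups did not overlap for either gene.

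Also called were Rps27l (0.50 ± 0.14; edgeR, adjusted p = 0.0345), Rpl7 (0.28 ± 0.08) and Rpl21 (0.24 ± 0.07). Groups did not overlap for 5 of the 6, and did for Rps27l, whose highest control library (14.6 CPM) lay above the lowest deprived one (14.0 CPM). Of all 993 genes called higher in this comparison 85.8% had groups that did not overlap, and of all genes tested 8.40% lay wholly above and 8.58% wholly below. Without control library 4 (21R) 0 members passed, and without control library 2 (15R) 18 did. Without 15L 1 member passed, and without any of 14L, 17L, 17R or 21L 2 passed. Without 14R 5 passed. Rpl10a differed by 0.08 ± 0.10 by title (edgeR, adjusted p = 0.664), and its sign was negative by side letter (-0.17) and without 17R and 21L (-0.05).

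The share of bound counts taken by the members was 0.774% in piece 14L and 0.652% in 14R, a left over right ratio of 1.19. It was 0.703% in 15L and 0.721% in 15R, a ratio of 0.976. It was 0.762% in 17L and 0.753% in 17R, both deprived by title, and 0.536% in 21L and 0.625% in 21R, both control by title. Mouse 17 has libraries titled deprived only, and mouse 21 has libraries titled control only, so that mouse and title cannot be told apart in these 4 pieces. By title the mean was 0.748% ± 0.0312 in deprived and 0.634% ± 0.0765 in control libraries, and by letter 0.694% ± 0.11 on the left and 0.688% ± 0.0592 on the right (SD, n = 4 each).

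Summed microglia markers in the same bound libraries were 346 and 302 CPM in mouse 17, 166 and 196 in mouse 21, 296 (14L) and 243 (14R), and 288 (15L) and 237 (15R). Of other lists, 2 of 19 terminal oligopyrimidine genes, 4 of 77 mitochondrial ribosomal protein genes and 9 of 76 respiratory chain genes rose by title and 0 fell. Of 29 initiation factors 2 rose and 2 fell. Of 8 elongation factors, 23 ribosome assembly genes and 16 genes that control ribosome synthesis and translation, 0 rose and 0 fell. The same held for 8 ribosomal proteins and partners outside the name pattern. Of all genes 5.52% were higher and 4.76% lower. By title 7 of 12 microglia markers rose and 0 fell, and the tag transcript rose by 0.53 ± 0.14 (edgeR, adjusted p = 0.0275). Of 12 astrocyte markers 5 rose and 0 fell, of 12 neuron markers 1 rose and 2 fell, of 8 oligodendrocyte lineage markers 0 rose and 2 fell, and of 8 endothelial and mural markers 0 changed in either direction. The medians of the lists were 0.53 (microglia), 0.30 (astrocyte), 0.24 (endothelial and mural), -0.13 (oligodendrocyte lineage) and -0.22 (neuron). Their part in the members' values was not tested. Without 17R and 21L 0 members passed (9 at an unadjusted p under 0.05) and the median was 0.05, and with mice 14 and 15 alone 0 passed and it was -0.04. Rps6 and Rpl5 stood at 0.32 and 0.28 without 17R and 21L, at 0.32 and 0.27 with mice 14 and 15 alone, and at 0.16 and 0.14 by side letter. Rps27l stood at 0.43, 0.20 and 0.16 under these groupings, Rpl7 at 0.23, 0.19 and 0.07, and Rpl21 at 0.20, 0.17 and 0.04.

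**Figure D5:**
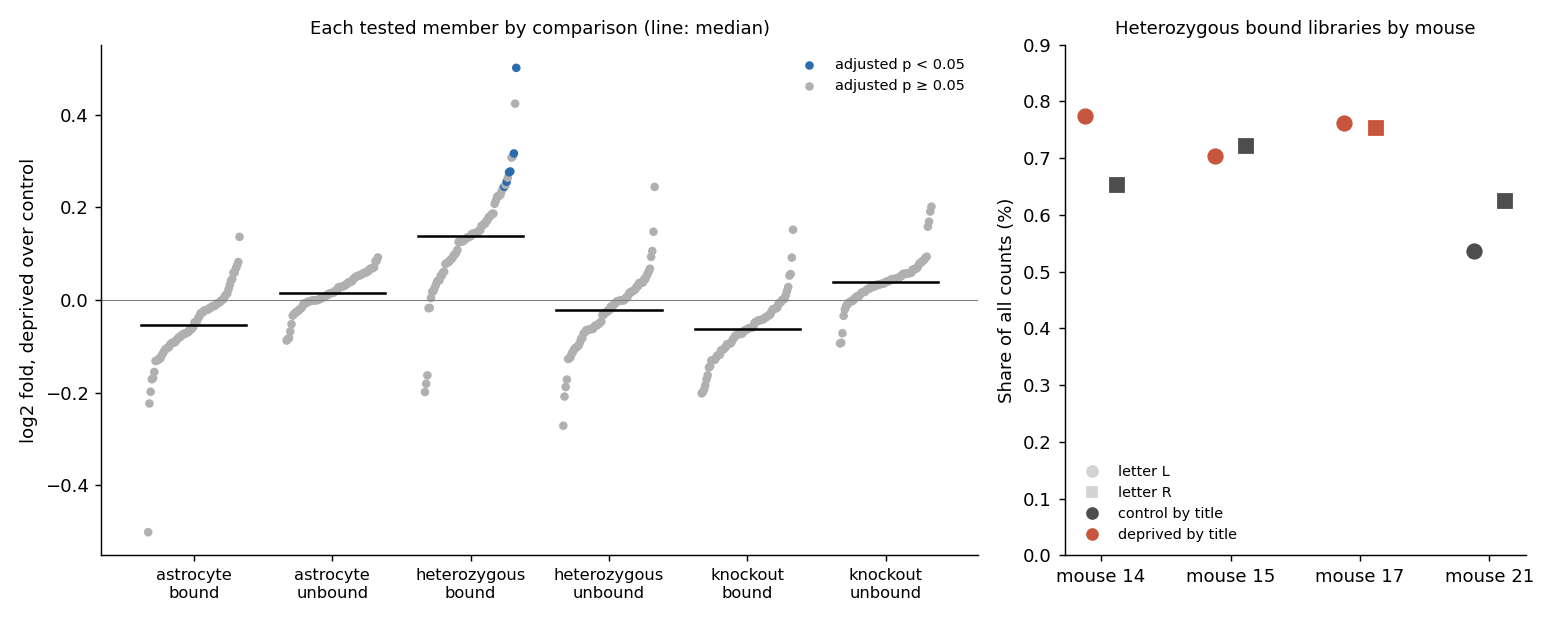
Left, log2 fold of deprived over control tissue (vertical axis) of each tested member in the 6 comparisons, blue where the adjusted p is below 0.05, with the median as a line. Right, share of all counts (%) taken by the members in the 8 heterozygous bound libraries by mouse, circles for letter L and squares for R, red where the title says deprived. The 6 called members are in heterozygous bound RNA, where mouse 17 (0.762% and 0.753%) and mouse 21 (0.536% and 0.625%) each hold 1 title group only.

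In unbound RNA of the heterozygous line 0 of 78 members passed by title (edgeR; 0 at an unadjusted p under 0.05; 0 by DESeq2), against 2.70% of all genes higher and 1.05% lower. The median was -0.02. Rps27l (0.24 ± 0.12), Rps15 (-0.12 ± 0.06) and Rpl3 (-0.13 ± 0.06) had the smallest p-values, and Rpl10a differed by 0.05 ± 0.10. By side letter 0 members passed (edgeR; 2 at an unadjusted p under 0.05), the median was -0.03 and Rpl10a stood at 0.02.

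Whether deprivation acted differently on bound and unbound RNA was tested as an interaction. Members called numbered 0 of 76 in the astrocyte, 0 of 78 in the heterozygous and 0 of 78 in the knockout line (edgeR; 1, 21 and 0 at an unadjusted p under 0.05; 0, 0 and 0 by DESeq2), and 0.0% of all genes were called in each. The medians were -0.07, 0.20 and -0.10, and those of all genes 0.01, 0.02 and 0.00. Rpl27a (0.30 ± 0.09; edgeR, adjusted p = 0.224) and Rpl5 (0.28 ± 0.09) were among the members with the smallest p-values in the heterozygous line, where the median was -0.01 by side letter. For the astrocyte line the smallest were those of Rpl6 (-0.22 ± 0.11), Rpl26 (-0.23 ± 0.12) and Rpl36a (-0.21 ± 0.12), and in the knockout line Rpl8 (-0.22 ± 0.13), Rpl7a (-0.22 ± 0.14) and Rps15 (-0.20 ± 0.13). With the tissue piece as a replicate block 1 member passed in the heterozygous line.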

How the data were processed

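RNA of 56 libraries was analysed from the deposited count tables of the authors (unnormalised reads for each Ensembl gene). Per the submitters' processing notes, the tools were featureCounts 2.0.0, HISAT2 2.2.0, FastQC 0.11.9, Trim Galore 0.6.4 and cutadapt 2.9, with the builds GRCm38 and mm10. Strand, the treatment of reads that map to several places and filters are not given in the sources used here. Totals were 10081228 to 56689296 counts per library.

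The test was edgeR's (4.0.16, R 4.3.3; TMM, filterByExpr, quasi-likelihood F test, two-sided, Benjamini-Hochberg over all genes tested, threshold 0.05), and functions were tested on simulated data. The SE is the absolute log2 fold change divided by the root of F. Line differences were fitted over the genes of both tables. Alternatives were DESeq2 1.42.0 (size factors and Wald test), library totals, no filter, all groups in the fit, sex or replicate block as a term, other groupings of heterozygous pieces, libraries of each mouse summed, and each library left out. Members, gene lists and the rule for named genes were chosen with earlier results of these data known. Named were Rpl10a, Rplp0, Rpsa, the paralogs and the X-linked members, up to 5 called members per direction by smallest p (otherwise 3 by smallest p), the 3 highest and lowest per length, and up to 3 per other list. Transcript lengths and positions are from GENCODE. Knockout libraries pair by mouse (7, 12, 18, 19 and 22), and their deviations from group means correlated at 0.057 to 0.332. Single values of some members are not reported here.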

Additional observations from a re-analysis of the deposited data

Results flagged for a closer look

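In a group of 4 or 5 libraries, the highest or lowest library was counted as apart where its gap to the nearest of the others, divided by the range of the group, was above Dixon's critical value, a value set so that chance passes it in about 1 in 20 groups. Single libraries stood apart in 6 of 112 groups, over the members' shares, the CPM of Rpl10a, Rplp0, Rplp1, Rpsa, Rpl6, Rps27l, Rpl7a and Rpl24, and the tag transcript in the heterozygous line. Rplp1 had 113 CPM in heterozygous bound control library 2, above the others of its group. Heterozygous unbound control library 10 was below its group for Rpl10a (124 CPM) and Rplp1 (101 CPM). Rplp0 had 109 CPM in the knockout bound deprived library of mouse 12, above its group, and Rpl10a had 220 CPM in the knockout unbound control library of mouse 22, above its group. The members' share of counts was 0.901% in the knockout unbound deprived library of mouse 7, below its group.

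Enrichment differed between lines by a test of the difference itself for 71 members (heterozygous minus astrocyte) and for 71 members (knockout minus astrocyte). All of these were lower, and the values are given in the report. Of all genes tested in the first comparison, 5318 of 21503 were lower and 3667 higher. In the second, 4383 of 21961 were lower and 4367 higher. With library totals 50 and 53 members were called. Cell type cannot be told apart here from count table, tamoxifen, Cx3cr1 genotype, the tag's locus or, for the knockout line, the molecule named in the labels.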

How the results depend on the processing

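Counts of called members stayed within 1.5 times the main count in 374 of 392 alternative fits, and 383 of 392 medians moved by less than their spread. The exceptions follow, and their cause was not tested. In heterozygous bound RNA the deprivation count of 6 became 22 with library totals, 11 without a low-count filter and 11 with all 4 groups in the fit. It became 0 by side letter, by side letter with mouse as a replicate block, without 17R and 21L, and with mice 14 and 15 alone, and ran from 0 to 18 with 1 library left out. The median became -0.054 by side letter, -0.057 with the mouse block and -0.041 with mice 14 and 15 alone, and Rpl10a then stood at -0.165, -0.161 and -0.17, and at -0.051 without 17R and 21L. In unbound RNA of that line the count of 0 became 1 without a filter and 0 to 1 with 1 library left out, and Rpl10a stood at -0.12 with mice 14 and 15 alone and from -0.077 (without control library 10) to 0.091 with 1 library left out. For the interaction in that line the tissue piece as a replicate block gave 1 call. The median by side letter was -0.006, and -0.012 with the tissue piece as a block as well. Rpl10a stood at -0.167 by side letter, -0.179 with that block added and -0.058 with 17R and 21L left out. With library totals the enrichment medians were -0.53 (heterozygous), -0.598 (knockout), -0.316 and -0.383 (each minus astrocyte). Rpl10a in astrocyte bound RNA was -0.024 with library totals and ranged from -0.025 to 0.026 with 1 library left out. With 1 library left out it ranged from -0.046 to 0.1 in knockout unbound RNA and from -0.072 to 0.001 for the astrocyte interaction. The replicate block changed no other count by over 1.5 times: in heterozygous bound RNA it gave 4 calls for deprivation, where numbers pair animals in mice 14 and 15 only, and astrocyte numbers name no animal. At these depths members with few counts (Rpl3l, Rpl10l and Rpl39l) did not pass the low-count filter of the main fits within lines.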
